A study of Mus musculus with 6 samples.

Results

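The *Serpina3* genes of the mouse were examined in stromal cells sorted from the inflamed colon. Every symbol of the tag-count table that starts with Serpina3 was taken, which gave 11 of 20327 gene symbols, *Serpina3a*, *b*, *c*, *f*, *g*, *h*, *i*, *j*, *k*, *m* and *n*. The family was selected on this same comparison between the sorted populations, in which several of its symbols had more tags in EGFP-Positive than in EGFP-Negative libraries. Its values between the groups are therefore given as a description, and where a member or a sum of members is said to be called, this only places it against the thresholds used for all genes and is not evidence for a difference. Both groups came from C57BL/6 *Il11-Egfp* reporter mice aged 9 to 15 weeks, in which a bacterial artificial chromosome with *Egfp* placed in *Il11* marks cells that express the cytokine IL-11. All mice had received 1.5% dextran sulfate sodium (DSS), a polymer that injures the colonic epithelium and causes colitis, in the drinking water for 5 days. On day 7, cells negative for CD45, CD31, EpCAM and Ter119 were separated into EGFP-Positive and EGFP-Negative cells. Those proteins mark leukocytes, endothelium, epithelium and erythroid cells in turn. There were 3 libraries per group and no library from untreated mice. RNA was read by 5′Tag-seq, which sequences tags from the 5′ side of polyadenylated transcripts, so a tag count is not divided by transcript length. The tags of EGFP-Negative replicates 1, 2 and 3 summed to 1057170, 1078179 and 1169817, and those of EGFP-Positive replicates 1, 2 and 3 to 1046538, 1022851 and 1049048. Levels are given as tags or as normalized CPM, a rate of tags in which the library total was scaled by edgeR's TMM factor. A symbol with 3 tags, taken as the floor, stood at 2.4 to 3.13 CPM.

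Serpins fold into a metastable structure with an exposed reactive centre loop. A target protease cleaves the loop and is then trapped in a covalent, inactive complex, so each serpin molecule works a single time. The human genome has a single *SERPINA3* gene, which encodes alpha-1-antichymotrypsin, a plasma protein of the acute-phase response. In the mouse this gene was duplicated repeatedly, and the copies differ most in the reactive centre loop, which sets the protease that each can bind.

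*Il11* itself checked the sort. It had 28, 51 and 89 tags in EGFP-Negative replicates 1, 2 and 3 and 1357, 732 and 2658 tags in EGFP-Positive replicates 1, 2 and 3, a log2 fold change of 4.99 (SE 0.391). Here and below the log2 fold change is EGFP-Positive minus EGFP-Negative. The cells of both groups carried fibroblast transcripts, and *Dcn* (decorin, a matrix proteoglycan) was the most abundant of 8 fibroblast markers with 10688 to 13079 CPM in EGFP-Negative and 14063 to 25726 CPM in EGFP-Positive libraries. Summed over the 8 markers, the level was 20428, 20253 and 22993 CPM in EGFP-Negative and 40374, 32398 and 28880 CPM in EGFP-Positive replicates 1, 2 and 3. *Col3a1* (a fibrillar collagen) and *Pdpn* (podoplanin) were called higher in EGFP-Positive libraries, with log2 fold changes of 1.05 and 1.06. Without EGFP-Negative replicate 1 they stood at 0.85 and 0.96 and were not called, and *Pdpn* at 0.96 was not called without EGFP-Positive replicate 1 either. Scaled by the library total alone they were also not called, at 0.96 and 0.98, and *Col3a1* was not called where only genes with 10 tags in all 6 libraries were tested. *Lum* (lumican), in the same list, ran the other way, with 999, 1192 and 1725 CPM in EGFP-Negative and 709, 903 and 924 CPM in EGFP-Positive replicates 1, 2 and 3. Its log2 fold change was −0.63 (SE 0.201), under the fold threshold, and all EGFP-Positive libraries lay below all EGFP-Negative libraries. *Thy1*, at 0.89 and not called, was called higher without EGFP-Negative replicate 3 (1.21) or without EGFP-Positive replicate 2.

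Markers of other cell types differed between the sorted populations. Over all tested genes, 3.45% were called higher and 6.3% lower in EGFP-Positive libraries. All 7 smooth muscle and pericyte markers were called lower in EGFP-Positive libraries, and their summed level was 3430, 3469 and 3761 CPM in EGFP-Negative and 257, 263 and 390 CPM in EGFP-Positive replicates 1, 2 and 3. Of these, *Cnn1* and *Notch3* passed the filter on low counts through the EGFP-Negative libraries alone. *Rgs5*, a regulator of G protein signalling found in pericytes, was the most abundant marker of the list with 1443 to 1819 CPM against 174 to 194 CPM. *Gfap*, a marker of enteric glia, had 22, 23 and 26 tags in EGFP-Negative and 1, 0 and 1 tags in EGFP-Positive replicates 1, 2 and 3. The glial genes *Sox10* and *S100b* had 0 tags in the EGFP-Positive libraries. Of 4 endothelial markers, *Tek* was tested and called lower (log2 fold change −1.58, and −1.40 and not called without EGFP-Positive replicate 2), while *Pecam1*, which encodes CD31, had at most 1 tag in any library. The list summed to 25.8 to 39.2 CPM in EGFP-Negative and 6.52 to 17.7 CPM in EGFP-Positive libraries. Leukocytes, epithelium and mesothelium left few tags. None of the 8 leukocyte markers, the 6 epithelial markers and the 3 mesothelial markers passed the filter on low counts. *Ptprc*, which encodes CD45, had at most 7 tags and *Epcam* at most 1 tag in a library, and the leukocyte list, in which *Cd68* had most tags over all libraries and *S100a8* in the EGFP-Positive group, summed to 13 to 29.2 CPM over the 6 libraries. The epithelial list, in which *Krt8* had most tags over all libraries and *Krt19* in the EGFP-Negative group, summed to 0.92 to 18.4 CPM, the highest in EGFP-Negative replicate 3, and the mesothelial list, led by *Upk3b*, to 0 to 10.4 CPM. Globin transcripts, led by *Hbb-bs*, were more frequent in some libraries although the gate removed Ter119-positive cells, and brought the erythroid list to 88.6, 0 and 297 CPM in EGFP-Negative and 18.8, 2 and 18.6 CPM in EGFP-Positive replicates 1, 2 and 3. The liver, in which several *Serpina3* genes are strongly expressed, was represented by 3 hepatocyte markers, which together had at most 4 tags in a library. In sorted populations, fewer cells of a type and less RNA per cell cannot be told apart, and the part of these marker differences in the *Serpina3* values was not tested.

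*Serpina3* transcripts were abundant in the stromal cells of both groups, and most of them were *Serpina3n*. Summed over the 11 symbols, they had 4220, 3685 and 3125 tags in EGFP-Negative and 5433, 5485 and 3696 tags in EGFP-Positive replicates 1, 2 and 3. This was 0.267% to 0.399% of all tags of an EGFP-Negative library and 0.352% to 0.536% of those of an EGFP-Positive library. On the normalized scale the sum was 3276 ± 722 CPM in EGFP-Negative and 4865 ± 1233 CPM in EGFP-Positive libraries (mean ± SD, n = 3), with a log2 fold change of 0.57 (SE 0.217). Replicate 3 had the lowest sum of its group on both sides, and the groups overlapped, because EGFP-Positive replicate 3 (3444 CPM) lay below EGFP-Negative replicate 1 (3934 CPM). Between libraries of the same number the log2 ratio of the sum was 0.52, 0.70 and 0.46.

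The sum hid large differences between the members. Of the 11 symbols, 6 had at least 10 tags in at least 3 of 6 libraries and were among the 9334 tested genes. *Serpina3f*, *Serpina3g* and *Serpina3m* were called higher in EGFP-Positive libraries, that is, their adjusted p was below 0.05 and they differed more than 2-fold, while *Serpina3n*, *Serpina3i* and *Serpina3c* were not called. Across all tested genes 322 were called higher, which is 3.45%, and 588 were called lower, which is 6.3%. All EGFP-Positive libraries lay above all EGFP-Negative libraries for *Serpina3f*, *Serpina3g* and *Serpina3m* and below them for *Serpina3c*. Among the tested genes 15% were separated in the first way and 16.4% in the second. As the family was chosen by its values in this contrast, nothing is read from these counts. The other 5 symbols, *Serpina3a*, *b*, *h*, *j* and *k*, had at most 9 tags in any library.

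**Figure D1:**
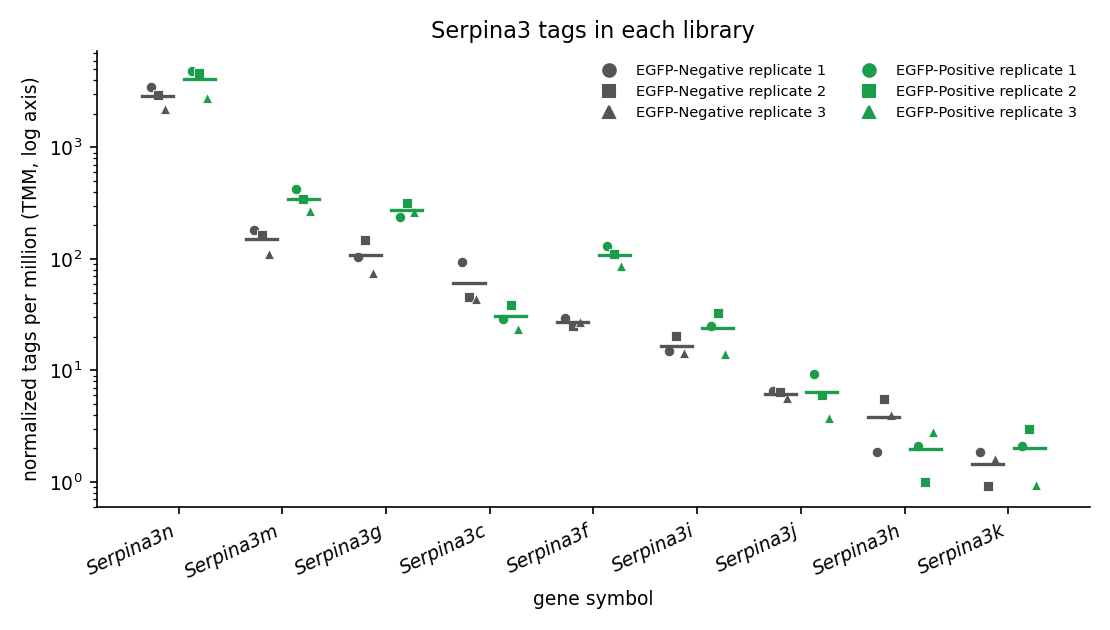
Normalized level in CPM (TMM, log axis) of the 9 *Serpina3* symbols with at least 1 tag in every library, ordered by the mean of the EGFP-Negative libraries. Grey and green symbols are single EGFP-Negative and EGFP-Positive libraries, the shape gives the replicate number and the line is the group mean of 3 libraries. *Serpina3n* lies above all other members in every library, and the groups are apart for *Serpina3m*, *Serpina3g*, *Serpina3f* and *Serpina3c*.

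*Serpina3n* encodes a secreted inhibitor of granzyme B and leukocyte elastase, and is a marker of inflammatory activation in several cell types. It had 3752, 3235 and 2771 tags in EGFP-Negative and 4606, 4627 and 2980 tags in EGFP-Positive replicates 1, 2 and 3. By tag number it ranked from 24 to 36 among all symbols in EGFP-Negative and from 17 to 28 in EGFP-Positive libraries. Its level was 2898 ± 642 CPM in EGFP-Negative and 4069 ± 1122 CPM in EGFP-Positive libraries, a log2 fold change of 0.49 (SE 0.221). EGFP-Positive replicates 1 and 2 were above all EGFP-Negative libraries, whereas EGFP-Positive replicate 3 (2777 CPM) fell within their range. In each same-numbered pair the EGFP-Positive library was the higher one, with log2 ratios of 0.46, 0.64 and 0.32.

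*Serpina3m* and *Serpina3g* came next in level in both groups. *Serpina3m* had 195, 178 and 139 tags in EGFP-Negative and 406, 348 and 290 tags in EGFP-Positive replicates 1, 2 and 3. This was 152 ± 36.6 CPM against 347 ± 76.4 CPM, a log2 fold change of 1.19 (SE 0.205). The lowest EGFP-Positive library (270 CPM) stood above the highest EGFP-Negative library (182 CPM), and the log2 ratios of the same-numbered pairs were 1.22, 1.09 and 1.28. Without EGFP-Negative replicate 3, the lowest library, its fold change fell just under the threshold and *Serpina3m* was not called. *Serpina3g*, also known as Spi2A, encodes an inhibitor without a secretion signal that acts on lysosomal cathepsins released into the cytosol. It had 112, 160 and 93 tags in EGFP-Negative and 230, 316 and 285 tags in EGFP-Positive replicates 1, 2 and 3, or 109 ± 36.5 CPM against 274 ± 39 CPM. Its log2 fold change was 1.34 (SE 0.212). EGFP-Negative replicate 2 was the highest of its group at 147 CPM, and the lowest EGFP-Positive library was at 240 CPM. Within each group the ranges of *Serpina3m* and *Serpina3g* overlapped, while inside each of the 6 libraries *Serpina3m* had more tags than *Serpina3g*, by as little as 290 against 285 in EGFP-Positive replicate 3.

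*Serpina3f* had the largest log2 fold change of the 6 tested members, 1.99 (SE 0.215). It had 32, 27 and 34 tags in EGFP-Negative and 125, 111 and 92 tags in EGFP-Positive replicates 1, 2 and 3, which was 27.3 ± 2.5 CPM against 109 ± 22.3 CPM. The EGFP-Negative libraries lay close together, between 24.8 and 29.8 CPM, and the EGFP-Positive libraries lay between 85.7 and 130 CPM.

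*Serpina3c*, known as a kallikrein-binding protein, differed in the other direction. It had 100, 49 and 55 tags in EGFP-Negative and 28, 39 and 25 tags in EGFP-Positive replicates 1, 2 and 3, or 60.8 ± 28.1 CPM against 30.5 ± 7.96 CPM. The log2 fold change was −0.99 (SE 0.298), just short of the 2-fold threshold. EGFP-Negative replicate 1 held about as many tags as the other 2 libraries of its group together. Without it the log2 fold change was −0.56, while leaving out any other library in turn kept it between −1.21 and −0.83. *Serpina3c* was called lower in 8 of 15 alternative settings, among them iterative TMM (log2 fold change −1.01) and scaling by the library total (−1.07). In EGFP-Negative libraries its level overlapped that of *Serpina3g* and was above that of *Serpina3f*, whereas in EGFP-Positive libraries it was below that of *Serpina3f* and overlapped that of *Serpina3i*.

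*Serpina3i* was a low member with 16, 22 and 18 tags in EGFP-Negative and 24, 33 and 15 tags in EGFP-Positive replicates 1, 2 and 3. Its groups overlapped, with 16.5 ± 3.22 CPM against 24 ± 9.57 CPM and a log2 fold change of 0.53 (SE 0.339). In the third pair the ratio was close to 1, with a log2 value of −0.05, against 0.75 and 0.71 in the other pairs. *Serpina3j* had 7 tags in each EGFP-Negative library and 9, 6 and 4 tags in EGFP-Positive replicates 1, 2 and 3. *Serpina3h*, annotated as a transcribed pseudogene, had 2, 6 and 5 tags in EGFP-Negative and 2, 1 and 3 tags in EGFP-Positive replicates 1, 2 and 3. *Serpina3k*, which encodes the liver protein contrapsin, had 1 to 3 tags in each library. *Serpina3a* and *Serpina3b* had 0 or 1 tag in each. A difference between the groups was not detectable at this depth for these 5 symbols, and no fold change is given for them.

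The make-up of the *Serpina3* tags differed between the groups. The family was selected on these same values, so the shares are a description and not a separate result. *Serpina3n* took 88.9%, 87.8% and 88.7% of them in EGFP-Negative and 84.8%, 84.4% and 80.6% in EGFP-Positive replicates 1, 2 and 3. The Wilson 95% intervals reached from 86.7% to 89.8% in the former and from 79.3% to 85.7% in the latter libraries, and such intervals take in no more than counting error, as copies made by PCR do not count separate molecules. The mean share of *Serpina3m* was 4.63% ± 0.191 in EGFP-Negative and 7.22% ± 0.782 in EGFP-Positive libraries, and that of *Serpina3f* was 0.86% ± 0.198 and 2.27% ± 0.234 (SD, n = 3). For both of these members the library shares of the groups did not overlap. The share of *Serpina3g* was 3.32% ± 0.896 in EGFP-Negative and 5.9% ± 1.74 in EGFP-Positive libraries, and here EGFP-Negative replicate 2 (4.34%) lay above EGFP-Positive replicate 1 (4.23%). *Serpina3c* made up 1.82% ± 0.523 and 0.634% ± 0.104, and *Serpina3i* 0.517% ± 0.12 and 0.483% ± 0.104. Since shares add up to the whole, a higher share of a member lowers those of the others.

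Ratios between members of the same library do not depend on the scaling of libraries. For each 100 tags of *Serpina3n* there were 2.67, 1.51 and 1.98 tags of *Serpina3c* in EGFP-Negative and 0.608, 0.843 and 0.839 in EGFP-Positive replicates 1, 2 and 3. The same ratio of *Serpina3m* to *Serpina3n* was 5.2, 5.5 and 5.02 in EGFP-Negative and 8.81, 7.52 and 9.73 in EGFP-Positive libraries. It was thus nearly constant among EGFP-Negative libraries although *Serpina3n* itself ranged from 2221 to 3498 CPM there. For each 100 tags of *Serpina3g* there were 28.6, 16.9 and 36.6 tags of *Serpina3f* in EGFP-Negative and 54.3, 35.1 and 32.3 in EGFP-Positive replicates 1, 2 and 3, so this pair did not separate the groups. *Serpina3i*, with 13.8 to 19.4 tags for each 100 of *Serpina3g* in EGFP-Negative and 5.26 to 10.4 in EGFP-Positive libraries, did. This ratio rests on 15 to 33 tags of *Serpina3i* in a library. The genes also share sequence, so the split of tags between them is uncertain, as described below.

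The genes form an uninterrupted run on chromosome 12. In RefSeq annotation of GRCm38.p6 the run holds 14 symbols between positions 104112724 and 104414334, a span of 302 kb, with 0 other protein-coding genes inside it. Of these symbols, 3 are pseudogenes that were not analysed here. *Serpina3f* (104214544 to 104221129), *Serpina3g* (104236147 to 104241939), *Serpina3h* (104247896 to 104254405) and *Serpina3i* (104263045 to 104269509) follow each other on the plus strand in the middle of the run. *Serpina3m* (104387157 to 104394259) and *Serpina3n* (104406646 to 104414334) are neighbours at its far end, and *Serpina3c* (104146907 to 104153929) lies on the minus strand near the start. Along the first group the log2 fold change was 1.99 for *Serpina3f*, 1.34 for *Serpina3g* and 0.53 for *Serpina3i*, and for the last pair it was 1.19 and 0.49.

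**Figure D2:**
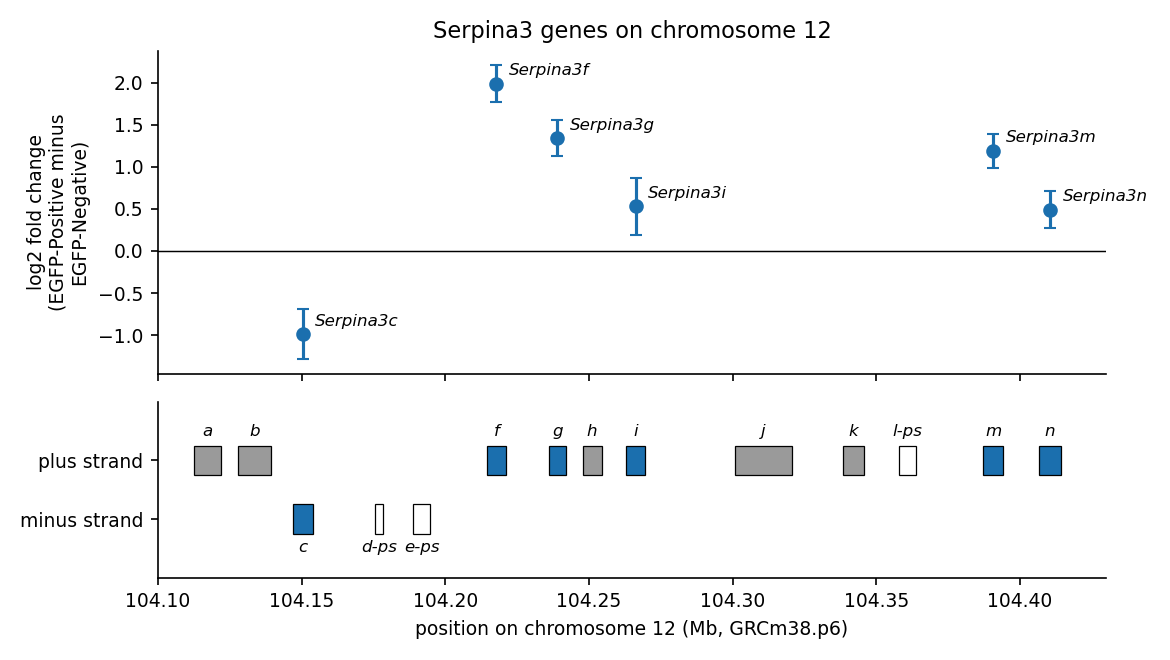
*Serpina3* genes on chromosome 12 (GRCm38.p6, position in Mb), drawn to scale by strand, with the log2 fold change (EGFP-Positive minus EGFP-Negative, bars show SE) of the 6 tested members above them. Blue boxes are tested members, grey boxes are members with too few tags to test and white boxes are annotated pseudogenes. *Serpina3f* stands highest at 1.99 and *Serpina3c*, on the minus strand, lowest at −0.99.

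Of the nearest 10 protein-coding genes on each side, 6 of the 20 were analysed here. *Serpina1b* and *Serpina1f*, which precede the run and belong to the alpha-1-antitrypsin branch of the family, had at most 3 tags and 1 tag in a library. Beyond the other end, *Dicer1* (the ribonuclease that cuts microRNA precursors), *Syne3* (a nuclear envelope protein) and *Glrx5* (a mitochondrial glutaredoxin) were tested and not called, with log2 fold changes of −0.27, −0.30 and 0.10. *Dicer1* had 27, 33 and 56 tags in EGFP-Negative and 27, 23 and 35 tags in EGFP-Positive replicates 1, 2 and 3. *Clmn* had 3 to 14 tags.

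Paralogues of recent origin share sequence, and a tag from a shared stretch could come from either gene. The methods list the alignment settings, but neither they nor the other sources used here say how tags that fit several genes were assigned. The split between close paralogues is therefore uncertain. Every run of 50 nt within the starting 300 nt of a *Serpina3* transcript was looked up in the other genes' transcripts of GENCODE mouse release 21. Such windows were shared with another gene in 31.3% of cases for *Serpina3h*, 26.7% for *Serpina3g*, 14.1% for *Serpina3i*, 13.5% for *Serpina3j* and 11.2% for *Serpina3n*. They were shared in 4.78% of cases for *Serpina3c*, 4.38% for *Serpina3m* and for *Serpina3k*, 2.26% for *Serpina3f*, 0.133% for *Serpina3a* and 0% for *Serpina3b*. The sharing fell mainly into sets, *Serpina3f*, *g*, *h* and *i*, then *Serpina3k* and *m*, then *Serpina3c*, *j* and *n*. Across these sets *Serpina3n* shared 2.39% of its windows with *Serpina3f*, 9.59% at 30 nt and 8.76% with 1 mismatch allowed, and *Serpina3a* shared 1 window with *Serpina3k* and *m*. Within them *Serpina3g* shared 20.9% of its windows with *Serpina3i* and 17.6% with *Serpina3f*, and *Serpina3n* shared 6.77% with *Serpina3j* and 1.99% with *Serpina3c*. Shorter windows were shared more often, and at 30 nt the value was 36.5% for *Serpina3g*, 31.7% for *Serpina3n*, 15.5% for *Serpina3m* and 13.3% for *Serpina3f*. A stretch of 600 nt raised *Serpina3m* to 26.1% and *Serpina3f* to 25.7%, while *Serpina3n* was at 9.07%. In an alignment of the longest transcript of each gene, the closest pairs were *Serpina3k* and *m* (90.7% identity), *Serpina3c* and *m* (89.4%), *Serpina3h* and *i* (88.6%) and *Serpina3f* and *g* (88.5%), whereas *Serpina3n* was at most 81.6% identical to any other member.

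**Figure D3:**
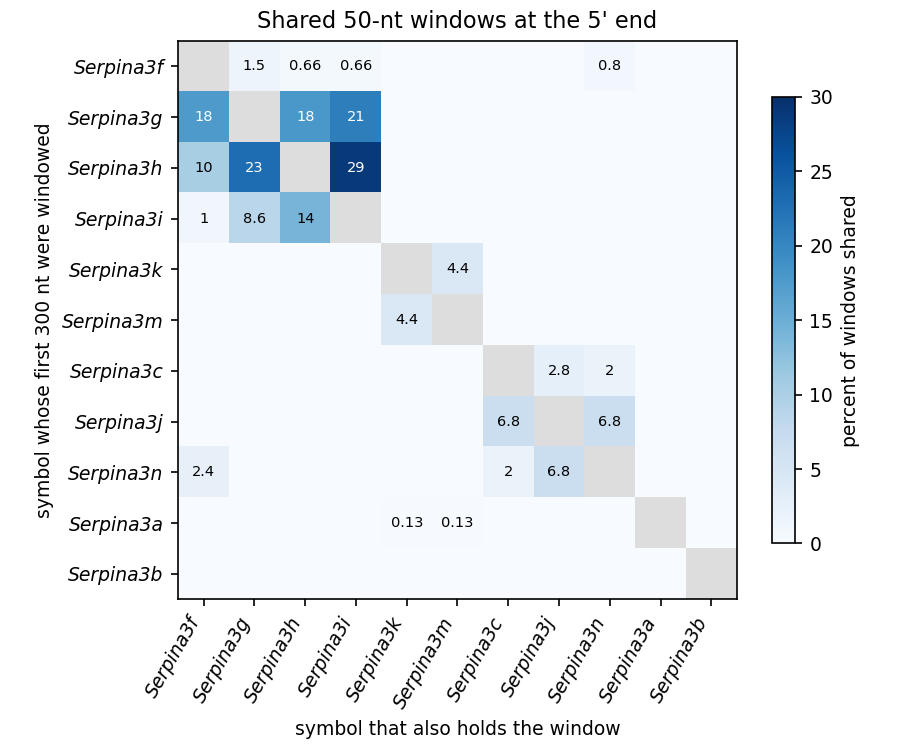
Percent of 50-nt windows, taken from the starting 300 nt of the transcripts of each *Serpina3* symbol (vertical axis) that also occur in transcripts of another *Serpina3* symbol (horizontal axis), from GENCODE mouse release 21. The darkest cells join *Serpina3f*, *g*, *h* and *i*, with up to 28.9% for *Serpina3h* in *Serpina3i*, and *Serpina3n* shares at most 6.77% of its windows with any other symbol.

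Sums over the sets do not depend on how tags were split inside them, but they do depend on the split between genes of different sets and with genes outside them, which was not tested. *Serpina3n* and *Serpina3f* are such a pair, and at 30 nt *Serpina3m* shared 4.06% of its windows with *Serpina3n*. The pseudogene *Serpina3e-ps*, not analysed here, held 5.28% of the windows of *Serpina3g* (23.9% with 1 mismatch allowed) and 5.98% of those of *Serpina3h*. These sums were chosen after seeing the data. *Serpina3f*, *g*, *h* and *i* together had 162, 215 and 150 tags in EGFP-Negative and 381, 461 and 395 tags in EGFP-Positive replicates 1, 2 and 3. This set had 156 ± 39 CPM against 409 ± 47.8 CPM, with a log2 fold change of 1.39 (SE 0.191) that stayed between 1.22 and 1.59 in the 15 alternative settings. *Serpina3k* and *m* together were 2.27-fold higher in EGFP-Positive libraries, and without EGFP-Negative replicate 3 their log2 fold change was 0.99 and not called. *Serpina3c*, *j* and *n* gave 0.47 (SE 0.221), with overlapping groups, because *Serpina3n* carried nearly all of their tags. The sum of all symbols other than *Serpina3n* had 468, 450 and 354 tags in EGFP-Negative and 827, 858 and 716 tags in EGFP-Positive replicates 1, 2 and 3, a log2 fold change of 1.08 (SE 0.189). It was 0.90 without EGFP-Negative replicate 3 and 0.99 when libraries were scaled by their totals alone, which is under the fold threshold.

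The sequence around the start sites was compared between members, without relating it to their fold changes. RefSeq windows from 250 bases before to 50 bases after the start were at hand for 8 of the 11 symbols, *Serpina3a*, *b*, *c*, *f*, *g*, *i*, *j* and *n*. Both strands were searched for GGGNNNNNCC, a core of sites bound by NF-kB, and for TTCNNNGAA, a core of sites bound by STAT proteins. NF-kB and STAT factors are activated by cytokines in inflamed tissue. GGGNNNNNCC occurred in the windows of 6 of the 8 members, all but *Serpina3a* and *Serpina3c*, and before the start in 4, as those of *Serpina3b* and *Serpina3j* lay after it. A member was counted if any of its windows matched, and *Serpina3f* had a further window, with a later start, that held no GGGNNNNNCC. Over all genes the share was per window, with GGGNNNNNCC in 50.8% of 32851 windows. TTCNNNGAA occurred in 3 members, *Serpina3f*, *Serpina3g* and *Serpina3i*, and in 8.3% of all windows. TTNNGNAA, a core of C/EBP sites, was in 6 members and in 40.7% of all windows, and TGANTCA, the core of AP-1 sites, in 0 members and in 7.81% of all windows. A match of letters is a description and does not show that a factor binds there, and no match says only that these letters are not in the window. Related letters can still be there, as in *Serpina3c*, whose window holds GGAATTTTCC. Looser forms of the cores were not searched.

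In 5 of these windows a stretch of 100 bases upstream of the start was taken up to closing letters that differ at a single position between the members. It shows which copies resemble each other and is printed 5′ to 3′ with matches to GGGNNNNNCC and TTCNNNGAA in capitals. In *Serpina3f*, *Serpina3g* and *Serpina3i* the first run of capitals matches GGGNNNNNCC (overlapping matches are joined) and the second matches TTCNNNGAA. The stretches lie in GRCm38.p6 at chr12:104153977-104154076 on the minus strand for *Serpina3c*, and on the plus strand at chr12:104214339-104214438 for *Serpina3f*, chr12:104236030-104236129 for *Serpina3g*, chr12:104262936-104263035 for *Serpina3i* and chr12:104406501-104406600 for *Serpina3n*.
Serpina3f: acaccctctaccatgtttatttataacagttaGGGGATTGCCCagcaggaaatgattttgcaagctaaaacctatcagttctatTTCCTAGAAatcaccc
Serpina3g: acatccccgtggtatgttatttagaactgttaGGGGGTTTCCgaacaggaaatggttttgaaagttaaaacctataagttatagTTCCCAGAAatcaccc
Serpina3i: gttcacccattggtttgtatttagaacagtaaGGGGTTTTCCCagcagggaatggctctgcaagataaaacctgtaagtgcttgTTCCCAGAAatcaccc
Serpina3c: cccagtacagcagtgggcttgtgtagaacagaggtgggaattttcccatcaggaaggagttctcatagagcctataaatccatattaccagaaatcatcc
Serpina3n: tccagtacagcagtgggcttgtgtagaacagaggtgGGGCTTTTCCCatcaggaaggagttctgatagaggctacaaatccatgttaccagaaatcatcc
Counted from the start site on which each window was built, which for *Serpina3c*, *Serpina3i* and *Serpina3n* is not the outer end of the gene given above, the last base of the stretch is at −106 in *Serpina3f*, −18 in *Serpina3g*, −87 in *Serpina3i*, −105 in *Serpina3c* and −108 in *Serpina3n*. Compared position by position, *Serpina3f*, *Serpina3g* and *Serpina3i* were 73% to 77% identical to each other, and *Serpina3c* and *Serpina3n* were 93% identical. Between these sets the identity was 38% to 42%. No gaps were allowed, and the first run of capitals starts later in *Serpina3n* than in *Serpina3f*. Bases inserted or lost in a copy lower such a value, and the stretches were not aligned with gaps. *Serpina3c* and *Serpina3n* also shared a run of 64 bases elsewhere in their windows. From *Serpina3c* to *Serpina3n*, counted from the 5′ end of the stretch, the 7 differences were C1T, A39G, A40C, C64G, C71G, T75C and A84G. A39G and A40C lie within the letters in capitals in *Serpina3n*. At the same place *Serpina3c* reads GGAATTTTCC where *Serpina3n* reads GGGCTTTTCC. It has no capitals there only because the search asked for GGG, which does not show that a site is absent. Binding to either was not tested. The longest run common to the windows of *Serpina3b*, *c*, *f*, *g*, *i* and *n* was CATTTCCTAAGA, which 12 of the 32851 windows held (0.0365%, 11 genes). These 6 members are also those with TTNNGNAA in their windows, and the run itself holds that core on the opposite strand. The rarity of the run and the count of that motif are therefore not separate observations.

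The rest of the serpin superfamily was compared through lists written with earlier results of these data known. For these lists and those that follow, the shares over all tested genes were 3.45% called higher and 6.3% called lower. The 3 other symbols that start with Serpina, *Serpina1b*, *Serpina1f* and *Serpina16*, had at most 3 tags in a library and were not tested. Of 20 serpins of other clades 9 were tested, with a median log2 fold change of −0.31, against −0.00 over all tested genes. *Serpine2*, which encodes an extracellular inhibitor of thrombin and urokinase, was the only one of the 9 called. It had 315, 222 and 232 tags in EGFP-Negative and 1496, 730 and 1361 tags in EGFP-Positive replicates 1, 2 and 3, and its log2 fold change was 2.38 (SE 0.247, edgeR quasi-likelihood adjusted p = 1.74e-06). *Serping1*, the inhibitor of the first complement proteases, had most tags of the list over all libraries, with 1590 to 1796 CPM in EGFP-Negative and 1101 to 1218 CPM in EGFP-Positive libraries. Its log2 fold change of −0.54 (SE 0.162) stayed under the fold threshold. By the mean over the 6 libraries, *Serpina3n* with 3662 tags came before *Serping1* with 1538 and *Serpinh1* (a collagen chaperone) with 1077 tags. In the EGFP-Positive group alone, *Serpinh1* and *Serpine2* had means of 1241 and 1186 CPM, above 1159 CPM for *Serping1*. *Serpini1* (neuroserpin) was called lower only without EGFP-Positive replicate 2, at −1.46. With no filter on low counts, 2 serpins of the list were called higher. With the adjusted p alone, where no fold change was asked for, 2 were called higher and 2 lower.

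Among the proteases that such inhibitors can meet, 6 of 12 listed symbols analysed here were tested, with a median log2 fold change of 0.01. *Prss23*, a secreted serine protease, and *Plat*, the tissue-type plasminogen activator, were called lower in EGFP-Positive libraries. *Prss23* had 247, 232 and 226 tags in EGFP-Negative and 57, 50 and 39 tags in EGFP-Positive replicates 1, 2 and 3 (log2 fold change −2.10, SE 0.199), and *Plat* had a log2 fold change of −1.50 (SE 0.182). *Ctsl*, a lysosomal cathepsin of the class that *Serpina3g* inhibits, had most tags over all libraries, though slightly fewer than *Ctsb* in the EGFP-Negative group. Its level was 1040 ± 178 CPM in EGFP-Negative and 1655 ± 350 CPM in EGFP-Positive libraries, a log2 fold change of 0.67 (SE 0.19) that was not called. *Gzmb*, the granzyme that *Serpina3n* inhibits, had 1, 3 and 5 tags in EGFP-Negative replicates 1, 2 and 3 and 0 tags in EGFP-Positive libraries, in a gate without leukocytes.

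Acute-phase genes, to which the *Serpina3* family belongs in liver, were called in both directions. Of 12 tested genes, 5 were called higher and 1 lower, and the median log2 fold change was 0.80. *Saa3*, a serum amyloid A made outside the liver, had most tags over the 6 libraries together, though in the EGFP-Negative group *C3*, *Mt2* and *Mt1* were higher. Its level was 1922, 2148 and 646 CPM in EGFP-Negative and 16497, 15737 and 8796 CPM in EGFP-Positive replicates 1, 2 and 3, and its log2 fold change was 3.12 (SE 0.348, edgeR quasi-likelihood adjusted p = 3.9e-06). As for *Serpina3n*, replicate 3 was the lowest library of each group. *Lcn2* (lipocalin that binds siderophores), *Cp* (ceruloplasmin), *Cfb* (complement factor B) and *Il1rn* (the interleukin receptor antagonist) were also called higher, with log2 fold changes of 2.69, 1.58, 1.41 and 2.86. *Il1rn* was low, with 1 to 5 tags in EGFP-Negative and 10 to 30 tags in EGFP-Positive libraries. It passed the filter through the EGFP-Positive libraries alone, and 4 genes of the list were called higher where 10 tags were required in all 6 libraries. *Lbp*, which binds lipopolysaccharide, was called lower, with 247, 163 and 172 tags against 26, 45 and 54 tags (log2 fold change −2.07, SE 0.24). *Mt2*, a metallothionein gene at 0.95 and not called, was called higher without EGFP-Negative replicate 1 (1.08) or without EGFP-Positive replicate 3 (1.13).

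Of 20 tested genes of the gp130 and STAT3 pathway, through which IL-11 and related cytokines signal, 2 were called higher and 3 lower, and the median log2 fold change was 0.03. The ligands *Lif* and *Clcf1* were called higher with log2 fold changes of 2.16 (SE 0.396) and 2.05 (SE 0.322). The receptor gene *Il6ra* (−1.22), the feedback inhibitor *Socs1* (−1.65) and the transcription factor gene *Junb*, which stood at the fold threshold, were called lower. *Junb* had most tags of the list over all libraries, though fewer than *Il6* in the EGFP-Positive group, and it was not called without EGFP-Negative replicate 2 (−0.94), without EGFP-Positive replicate 1 (−0.99), without EGFP-Positive replicate 3 or with no filter on low counts (−0.97). The genes of the receptor that the ligand IL-11 needs, *Il11ra1* and *Il6st*, were not called, with log2 fold changes of −0.30 and −0.19. Other calls appeared in alternative settings. *Cebpd* was called lower with library totals alone. Without EGFP-Negative replicate 3, *Socs3* was called lower (−1.05) and *Il6* higher (1.25), and without EGFP-Positive replicate 3, *Cebpd* was again called lower (−1.11) and *Jak2* higher (1.02).

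Of 15 tested genes induced by interferon gamma, 3 were called lower and 0 higher, and the median log2 fold change was −0.67. *Irgm1*, *Igtp* and *Gbp7*, GTPases of cell-autonomous defence, had log2 fold changes of −1.57, −1.35 and −1.03. *Irgm1* was called in every setting run, whereas *Igtp* was not called by DESeq2 (−1.35) or without EGFP-Negative replicate 2 (−1.45), EGFP-Negative replicate 3 (−1.06), EGFP-Positive replicate 1 (−0.94) or EGFP-Positive replicate 3 (−1.30). *Gbp7* was not called without EGFP-Negative replicate 3 (−0.89), without EGFP-Positive replicate 1 (−0.97) or with no filter on low counts (−0.99). *Cxcl10* was called lower without EGFP-Negative replicate 1 (−1.01), EGFP-Negative replicate 3 (−1.09) or EGFP-Positive replicate 2 (−1.25), *Gbp3* without EGFP-Negative replicate 1 and *Iigp1* without EGFP-Positive replicate 3 (−1.22). The count of genes called lower was thus 5 without EGFP-Negative replicate 1 and 1 without EGFP-Positive replicate 1. With the adjusted p alone, where no fold change was asked for, it was 6. *Irf1*, the transcription factor gene with most tags of the list, was at −0.55 (SE 0.198) and was not called. Of 9 tested genes induced by glucocorticoids, *Tsc22d3* was called lower, with 169, 106 and 46 tags in EGFP-Negative and 45, 31 and 10 tags in EGFP-Positive replicates 1, 2 and 3 and a log2 fold change of −1.75 (SE 0.438). Its groups overlapped, although the log2 ratios of the same-numbered pairs were −1.75, −1.65 and −1.98, and it was not called by DESeq2 (−1.74) or without EGFP-Negative replicate 1 (−1.22). Without EGFP-Negative replicate 3, 2 genes of the list were called lower, the other being *Zbtb16* (−1.14). *Dusp1*, a phosphatase gene with most tags of the list, was at −0.41, and the median of the list was −0.22.

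The genes whose normalized level ran most like the summed *Serpina3* tags over the 6 libraries were *Erlec1* (Pearson's r = 0.993, Spearman's rho = 0.89), *Kcnj8* (0.992 and 1), *Cxcl13* (0.989 and 0.94), *Rab34* (0.988 and 0.94) and *Ifitm2* (0.987 and 0.94), out of 5059 genes that averaged 30 tags or more. The correlation was computed on log2 of CPM plus 1, and the 6 points share their libraries and the difference between the groups. By Spearman's rho, 13 genes had a value as high as that of *Kcnj8*, and 200 genes one as high as that of *Erlec1*. *Kcnj8*, a potassium channel subunit, had 145, 115 and 100 tags in EGFP-Negative and 213, 191 and 125 tags in EGFP-Positive replicates 1, 2 and 3. *Cxcl13*, a chemokine that attracts B cells, had 770, 679 and 414 tags in EGFP-Negative and 1434, 1756 and 684 tags in EGFP-Positive replicates 1, 2 and 3, and was the only one of the 5 that was called, with a log2 fold change of 1.22 (SE 0.301). As for the *Serpina3* sum, EGFP-Positive replicate 3 lay below the highest EGFP-Negative library in each of these 5 genes. The genes were chosen by their likeness to the sum over these libraries, so this is not a separate observation.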

How the data were processed

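Counts of tags per gene symbol were deposited by the authors, without normalization. According to the methods and the submitters' processing notes, reads were trimmed with Cutadapt 1.18, aligned by Bowtie2 2.2.5 in 1 orientation to mouse RefSeq transcripts (mm10) and compared in R 3.5.1 with the TCC package and edgeR. The methods list the Bowtie2 settings. Molecular identifiers and the handling of tags that fit several genes are not described in the sources used here.

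A symbol was tested if 3 of the 6 libraries or more held 10 tags of it, in R 4.3.3 with edgeR 4.0.16 (TMM, glmQLFit and glmQLFTest, Benjamini-Hochberg adjustment over 9334 genes). A gene was called if it differed more than 2-fold with an adjusted p below 0.05, the thresholds of the methods. Sums of symbols replaced those symbols in the table before the fit was repeated. The steps were tested on simulated counts. Replicate numbers come from the labels, and the methods name 3 mice. Deviations from the group means correlated between same-numbered libraries (r = 0.23, 0.21 and 0.27 over 5064 genes, which are not independent replicates), so the numbers were taken as pairing the samples.

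The *Serpina3* symbols and the gene lists were chosen with earlier results of these data known. Named genes are all *Serpina3* symbols, *Il11*, up to 6 called genes and the gene with most tags of each of 7 lists, the markers of 9 cell types, the 5 genes most like the summed tags and the neighbouring genes. *Serpinh1*, *Gzmb*, *Ctsb*, *C3*, *Mt1*, *Il6*, genes called only in alternative settings, *Il11ra1*, *Il6st* and the marker genes singled out were named after their values were seen. Positions and promoter windows are from RefSeq (GRCm38.p6), transcripts from GENCODE mouse release 21, aligned with MAFFT 7.526. Alternatives were RLE factors, iterative TMM (3 iterations, first-round adjusted p of 0.1, at least 5% left out), library totals alone, DESeq2 1.42.0, the exact test after iterative TMM, other filters, the adjusted p alone, the replicate block, each library left out in turn, other window lengths, 1 mismatch and Spearman's rho. Leaving out a library kept the genes tested with all 6, which was chosen after seeing the data. A 0 count allows up to 3 tags.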

Additional observations from a re-analysis of the deposited data

How the results depend on the processing

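The alternative settings used the libraries on which the family was selected, so they show how far the values depend on the settings and lend them no support. Over 15 settings the log2 fold changes of *Serpina3f* and *Serpina3g* were 1.84 to 2.13 and 1.11 to 1.62, and *Serpina3m*, with up to 1.33, was over the thresholds in 14 of them. *Serpina3n* (0.32 to 0.69), *Serpina3i* (0.23 to 0.80) and the sum of all symbols (0.40 to 0.76) were over them in 0 of 15. The number of *Serpina3* symbols called lower was 1, *Serpina3c*, in place of 0 with iterative TMM, with library totals alone, with the exact test run after iterative TMM, with the filter of 10 tags in all 6 libraries and with the adjusted p alone, and 0 to 1 when each library was left out. *Serpina3c* lies next to the fold threshold. The replicate block gave 337 genes called higher and 639 lower, and log2 fold changes of 1.98, 1.37 and 1.19 for *Serpina3f*, *g* and *m*. It changed no call of a *Serpina3* symbol or a list gene. With the block, *Serpina3n* stood at 0.47 (SE 0.13, against 0.221 without it). The sum of all symbols stood at 0.56 (SE 0.128, against 0.217). Both then missed the calling thresholds by the fold change alone. Over all genes, 651 were called higher with the adjusted p alone, where no fold change was asked for, and 256 were called lower with 10 tags in all 6 libraries, where 7098 genes were tested. With the adjusted p alone, 5 genes of the gp130 list and 2 of the glucocorticoid list were called lower, and 1 protease gene higher. Of 475 values recomputed, 0 were labelled reversed. Only a log2 fold change called in the main or the alternative setting could receive that label, so most of the values could not. The log2 fold changes of the tested members and the sums all kept their sign. A count was taken as moved when it differed more than 1.5-fold, a log2 fold change as weaker or stronger when it crossed the calling thresholds and a window share as moved when it left its binomial interval. By these rules 51 values moved, 4 were weaker and 8 were stronger, and values that changed less were not listed. Most of those that moved were shares of 5′ windows, which changed with the lengths chosen and also when 1 mismatch was allowed, as from 11.2% to 29.5% for *Serpina3n* and from 26.7% to 40.8% for *Serpina3g*. Of the 5 genes most like the sum by Pearson's r, 1 was among the 13 highest by Spearman's rho. *Serpina3a*, *b*, *h*, *j* and *k*, with at most 9 tags in a library, were too low to compare. The assignment of tags shared by paralogues was not tested, since the counts are per symbol.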
